A study of Rattus norvegicus with 16 samples.

Results

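Ageing of the soleus, a predominantly slow-twitch postural muscle of the calf, was examined at the level of microRNA (miRNA) in male Fischer 344 rats. The 8 soleus arrays were taken by the muscle and age given in the labels, out of 16 arrays in all. They comprised 4 arrays from young rats of 6 to 7 months (young soleus 7, 8, 9 and 10) and 4 from old rats of 25 to 28 months (old soleus 1, 2, 3 and 4). No treatment or genetic change is named for either age. The other 8 arrays came from EDL, the predominantly fast-twitch extensor digitorum longus, at the same ages, and entered the statistical model and one comparison below. The labels do not say whether each array is a separate animal, so the p-values reflect only how far these arrays spread, which could be partly technical.

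miRNAs are short RNAs that guide the silencing machinery to messenger RNAs, mainly through their seed, the bases from position 2 to 8, and miRNAs with 1 seed share many predicted targets. Striated muscle is dominated by a small set called myomiRs, such as miR-1, miR-133a and miR-206, which act in muscle growth and fibre identity. Loss of muscle mass and force with age involves fibres, nerve contacts, vessels and the connective tissue between fibres. In whole muscle, fewer cells of a type and less of a miRNA per cell cannot be told apart.

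Old and young soleus differed in 4 of 114 tested miRNAs (3.51%) at an adjusted p under 0.05 with limma. miR-214 and miR-29b were higher in old soleus (1.75% of tested miRNAs), and miR-196a and miR-30c were lower (1.75%). The mature sequences of these 4 are shown first because they carry that result. They are RefSeq entries on build GRCr8, 5′ to 3′, with the seed in capitals.
miR-196a: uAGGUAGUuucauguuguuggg
miR-30c: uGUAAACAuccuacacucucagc
miR-29b: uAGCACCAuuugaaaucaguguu
miR-214: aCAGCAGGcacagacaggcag

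The mature miR-196a lies on the plus strand of chr7:135988900-135988921, in the gene Mir196a. The mature miR-214 lies on the plus strand of chr13:77121713-77121733, in Mir214. miR-30c and miR-29b each have 2 loci that give the same mature sequence (Mir30c1 on chromosome 5 and Mir30c2 on chromosome 9, and Mir29b1 on chromosome 4 and Mir29b2 on chromosome 13), so the array cannot say which locus the signal came from. The next sequences are from relatives and from miRNAs that came close to the threshold, and are shown so that shared seeds can be read beside their values.
miR-30a: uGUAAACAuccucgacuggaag
miR-30e: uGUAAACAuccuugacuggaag
miR-29a: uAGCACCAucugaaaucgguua
miR-29c: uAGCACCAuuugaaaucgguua
miR-16: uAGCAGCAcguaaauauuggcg
miR-195: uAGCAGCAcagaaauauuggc
miR-206: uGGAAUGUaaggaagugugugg
miR-1: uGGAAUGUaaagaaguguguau
miR-21: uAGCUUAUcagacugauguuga
miR-128: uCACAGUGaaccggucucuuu

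The muscle identity of the samples was checked against markers. miR-206, a myomiR abundant in slow muscle, had levels from 16.4 to 26.1 on the soleus arrays and from 1.91 to 5.56 on the EDL arrays. Here and below a level is the signal of a miRNA's brightest probe divided by a percentile of its own array, so it compares arrays for 1 miRNA and not different miRNAs. A sum of levels over several miRNAs is weighted toward the brightest of their probes. miR-499, hosted by a myosin gene of slow fibres, ranged from 0.277 to 0.625 in soleus and from 0.0339 to 0.0371 in EDL, where 0.0339 is the lowest value allowed. miR-208b-3p, another such miRNA, was well above background on 0 soleus arrays. Of the markers of other tissues, 0 of 7 epithelial miRNAs and 0 of 1 liver miRNA were well above background on any soleus array. Of 8 neural miRNAs, 7 were well above background on 0 soleus arrays and 1, miR-128, on all 8.

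The arrays of the 2 ages differed in technical respects that bear on every value below. All young soleus arrays were on 1 slide and all old soleus arrays on another, so slide and age cannot be told apart. The percentile used for scaling, a measure of array brightness, was 290, 504, 681 and 672 on young soleus 7, 8, 9 and 10, and 405, 414, 472 and 400 on old soleus 1, 2, 3 and 4. Young soleus 7 was the dimmest array of all, and its lowest level well above background was 0.0935, against 0.0381 to 0.0690 on the other soleus arrays. The labelling control fell outside the scanner software's range on young soleus 7, on young soleus 8 and on all 4 old soleus arrays. Old arrays were dimmer than young ones by 0.27 on the log2 scale (log2 difference -0.27, two-sided exact permutation p = 0.343 with 4 against 4 arrays, smallest possible p 0.0286). Without young soleus 7 the log2 difference was -0.54; it is given with no test, because leaving out the dimmest array widens the gap by construction.

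**Figure D1:**
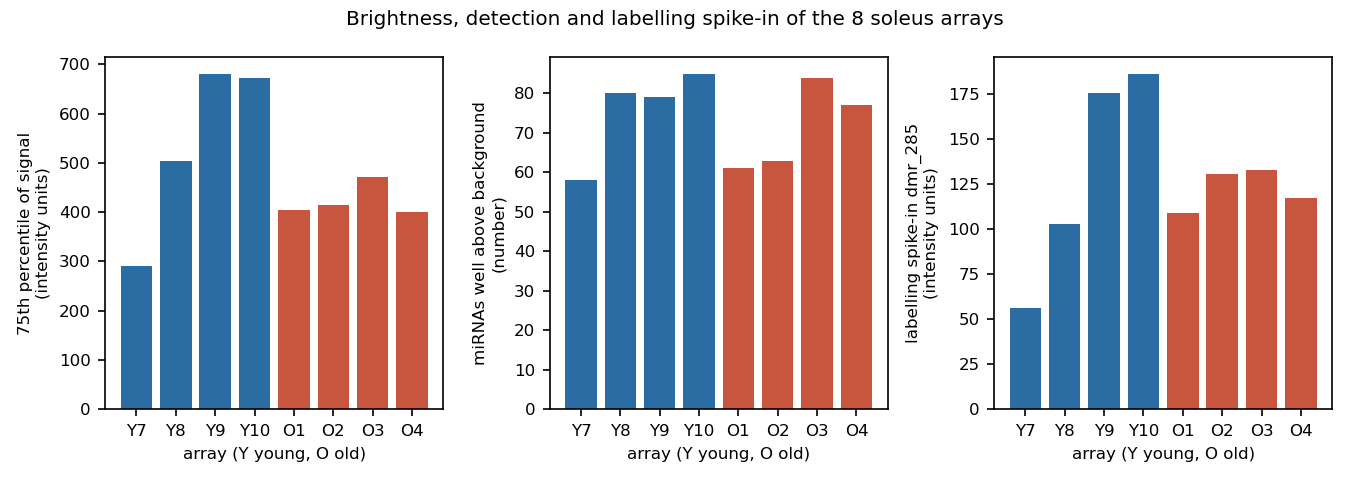
Array brightness (75th percentile of signal, intensity units), number of miRNAs well above background, and signal of the labelling spike-in dmr_285 (intensity units) for each soleus array, young in blue and old in red. Young soleus 7 (Y7) has the lowest bar in each panel: a percentile of 290, 58 detected miRNAs and a spike-in signal of 55.9.

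The number of miRNAs well above background was 58, 80, 79 and 85 on the young arrays and 61, 63, 84 and 77 on the old ones. Of the 114 tested miRNAs, 78 were detected (well above background) on at least 4 soleus arrays, 56 on all 8, and 26 on 0. The last 26 entered the test through EDL, and 19 of the tested miRNAs sat at the lowest allowed value on all 8 soleus arrays. Across the 114, 47 differences were above 0, 48 below and 19 at 0, with a median log2 difference of 0. Over the 78 the median was -0.02, with 37 above and 41 below. The median SD of log2 levels was 0.1498 within young soleus, 0.113 without young soleus 7, and 0.127 within old soleus.

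miR-196a, a miRNA of the Hox gene clusters that targets Hox transcripts, gave the smallest p. Its level was 0.105, 0.0966, 0.112 and 0.104 on young soleus 7 to 10 and 0.0501, 0.0550, 0.0625 and 0.0752 on old soleus 1 to 4. The ages did not overlap, and the old values spread more than the young ones. The log2 difference was -0.80 ± 0.12 (SE, n = 4 and 4), a level 1.74-fold higher in young muscle (limma adjusted p = 0.00155). It was well above background on 4 young and 2 old arrays, and its other probe gave a log2 difference of -0.52. It was past the threshold whichever array was left out, with adjusted p-values from 0.000154 to 0.00883, and under 26 of 32 alternative settings in all, but its difference shrank to -0.14 and was not past the threshold with normexp background correction.

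The other Hox-cluster miRNAs did not pass. miR-10b, from the Hoxd cluster, was at 0.234, 0.222, 0.228 and 0.179 in young soleus and 0.166, 0.227, 0.201 and 0.206 in old soleus, so the ages overlapped widely. miR-10a-5p had a log2 difference of 0.11 (limma adjusted p = 0.697). miR-196b had one of -0.09 (limma adjusted p = 0.653) and miR-196c one of 0.08 (limma adjusted p = 0.663), both with overlapping ages. They were well above background on only 2 and 0 soleus arrays. Of 5 tested Hox-cluster miRNAs 2 were above 0 and 3 below, with a median log2 difference of -0.09.

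miR-30c belongs to the miR-30 family, which is abundant in heart and skeletal muscle. Its level was 1.11, 1.12, 1.34 and 1.20 in young soleus and 0.766, 0.898, 0.942 and 0.931 in old soleus. Every old array was below every young one. The log2 difference was -0.44 ± 0.10 (limma adjusted p = 0.0384), and its other probe gave -0.38. It was past the threshold in 1 of the 8 fits that each left out 1 soleus array, the fit without young soleus 7, and the adjusted p over those fits ranged from 0.0175 to 0.128. It passed under 15 of 32 alternatives in all.

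miR-30a and miR-30e, the relatives of miR-30c whose sequences were matched and carry the seed GUAAACA, were also below 0. No sequence was matched for miR-30b-5p and miR-30d, so their seeds were not compared. miR-30e, whose locus starts 2999 bases from that of miR-30c-1 on chromosome 5, was at 0.187, 0.199, 0.274 and 0.248 in young soleus and 0.128, 0.163, 0.189 and 0.145 in old soleus. Only old soleus 3, at 0.189, reached into the young range. Its log2 difference was -0.54 ± 0.16 (limma adjusted p = 0.0636), and -0.63 without young soleus 7 (limma adjusted p = 0.0269). miR-30a had a log2 difference of -0.29 (limma adjusted p = 0.128). miR-30b-5p, at -0.19, and miR-30d, at 0.01, were not past the threshold either. In all, 1 of 5 tested family members fell (against 1.75% of all tested miRNAs) and 2 of 5 without young soleus 7 (against 11.4%), 4 of 5 were below 0 and the median log2 difference was -0.29. Under the scalings to all probes, to the labelling spike-ins, to the probes detected on all soleus arrays, and with none, 5 of 5 were below 0. The median of all tested miRNAs was then itself -0.24, -0.19, 0 and -0.17, and 5 of 5 also lay below that median. With quantile normalization and with normexp background correction 4 of 5 were below 0. The passenger strand miR-30a*, from the opposite arm of the miR-30a hairpin, had a log2 difference of -0.36 and was past the threshold without young soleus 7 (-0.47, limma adjusted p = 0.0337).

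miR-29b belongs to the family with the seed AGCACCA that represses collagens and other matrix genes. Its level was 0.167, 0.166, 0.265 and 0.210 in young soleus and 0.311, 0.377, 0.338 and 0.322 in old soleus. All old arrays were above all young ones, and young soleus 9 was the nearest to them. The log2 difference was 0.76 ± 0.19, a level 1.70-fold higher in old muscle (limma adjusted p = 0.0384), and its other probe gave 0.73. It was past the threshold in 2 of the 8 fits that each left out an array, with adjusted p-values from 0.0185 to 0.0937, and under 15 of 32 alternatives in all.

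The other members of the family were not past the threshold. miR-29a, which lies 374 bases from miR-29b-1 on chromosome 4, was at 1.26, 1.16, 1.47 and 1.26 in young soleus and 1.37, 1.42, 1.44 and 1.48 in old soleus, with overlap. Its log2 difference was 0.16 ± 0.11 (limma adjusted p = 0.430). miR-29c, 530 bases from miR-29b-2 on chromosome 13, had a log2 difference of 0.04 ± 0.16 (limma adjusted p above 0.05). So 1 of 3 tested members rose (against 1.75% of all tested miRNAs), and although 3 of 3 were above 0, miR-29a and miR-29c were below 0 with scaling to all probes, with scaling to the labelling spike-ins and with none. The difference between family members was not tested.

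miR-214 is transcribed together with miR-199a and is known from mesenchymal cells. Its level was 0.0481, 0.0487, 0.0443 and 0.0646 in young soleus and 0.0820, 0.0709, 0.0801 and 0.109 in old soleus. The ages did not overlap, with young soleus 10 and old soleus 2 the nearest pair. The log2 difference was 0.73 ± 0.17, a level 1.66-fold higher in old muscle (limma adjusted p = 0.0384). These are dim values: miR-214 was not well above background on 1 young array. No other probe of it was detected on enough soleus arrays to be compared. miR-214 was past the threshold in 3 of the 8 fits that each left out an array. It passed under 13 of 32 alternatives in all. Its difference fell to 0.35 with scaling to all probes, 0.28 with no scaling, 0.36 with normexp background correction, 0.43 with spike-in scaling and 0.32 with a floor 2 times higher, and it did not pass under any of these 5.

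The partners of miR-214 in the same transcript lay on the same side of 0. miR-199a-3p, whose mature sequence starts 5419 bases from that of miR-214, was at 0.151, 0.149, 0.144 and 0.181 in young soleus and 0.213, 0.192, 0.200 and 0.214 in old soleus. The ages did not overlap. Its log2 difference was 0.39 ± 0.16 (limma adjusted p = 0.125). miR-199a-5p, well above background on 4 of 8 soleus arrays, also did not overlap between ages and had a log2 difference of 0.46 ± 0.19 (limma adjusted p = 0.125).

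**Figure D2:**
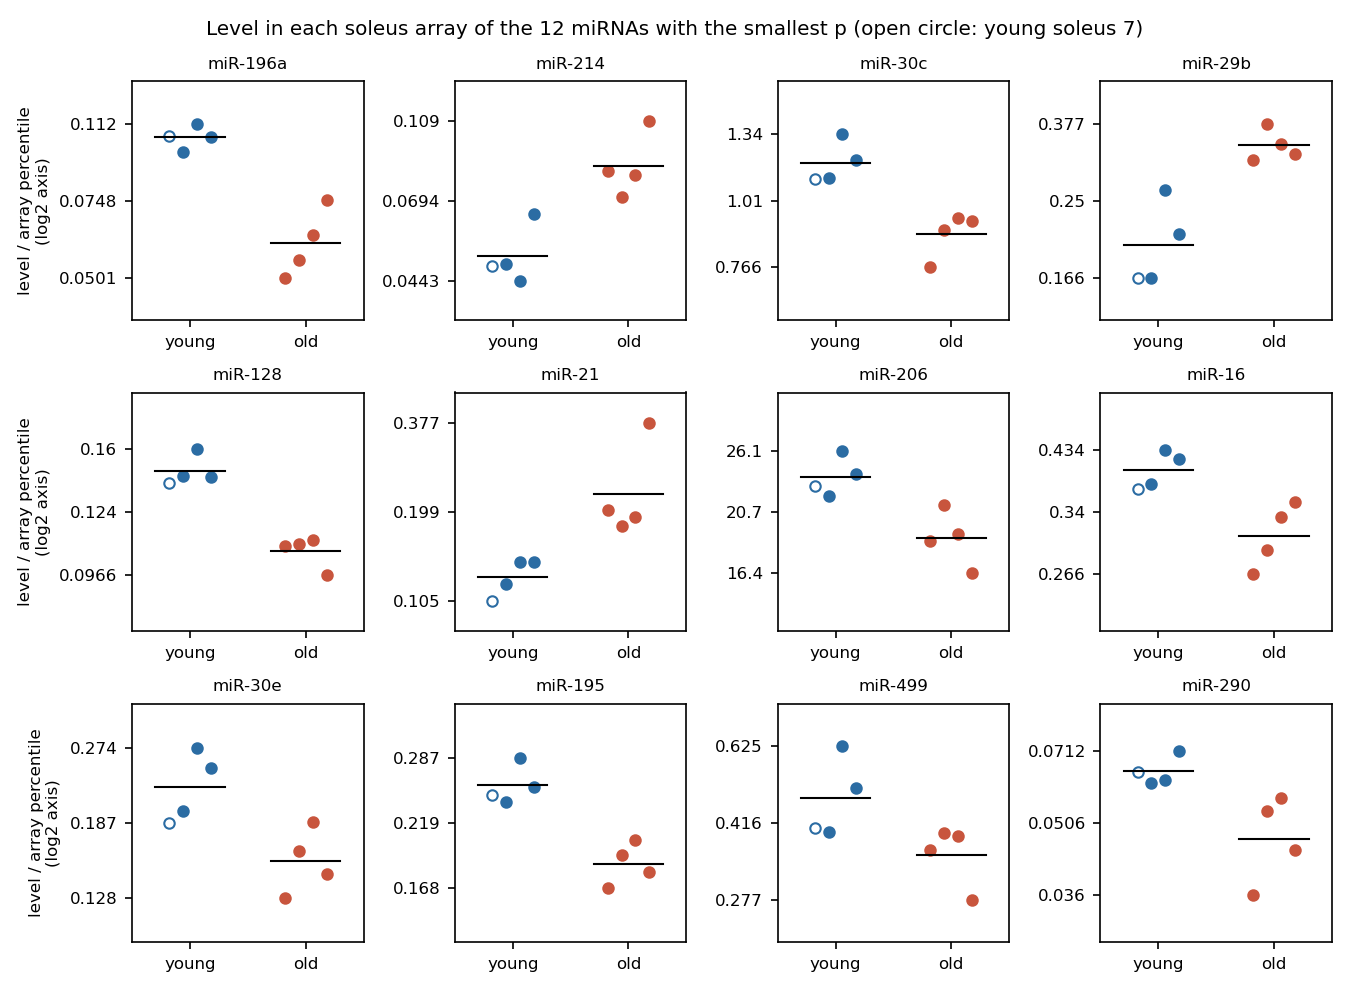
Level of the 12 miRNAs with the smallest p on each soleus array (signal relative to the array's percentile, log2 axis), young in blue and old in red; bars are geometric means of 4 arrays and the open circle is young soleus 7. In 11 of the 12 panels the ages do not overlap; in the panel of miR-30e old soleus 3 reaches the young range.

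The 4 calls depended on which arrays entered the fit. Leaving out young soleus 7 raised the count to 26 of 114 (22.8%), and all 4 were among them. Leaving out young soleus 8, 9 or 10 gave 1, 2 and 2 calls, and leaving out old soleus 1, 2, 3 or 4 gave 1, 2, 1 and 2. A fit of the 8 soleus arrays alone gave 3 calls (2.63%), all lower in old muscle, namely miR-196a, miR-128 and miR-195, of which 1 was also called in the fit of 16 arrays. That fit without young soleus 7 gave 14 (12.3%), 7 higher (6.14%) and 7 lower (6.14%), and 10 of these 14 were among the 26. At an unadjusted limma p under 0.05, 35 miRNAs differed with all arrays and 44 without young soleus 7. The old and young values did not overlap for 25 of 114 miRNAs (21.9%), 10 higher in old muscle (8.77%) and 15 lower (13.2%). Without young soleus 7 it was 45 (39.5%), 23 higher (20.2%) and 22 lower (19.3%).

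Scaling set the direction of much of this comparison. With scaling to the probes detected on all 8 soleus arrays there were 14 calls, 3 higher and 11 lower, and with quantile normalization 12, 4 higher and 8 lower. Spike-in scaling, which uses the labelling controls, gave 39 calls, of which 1 was higher and 38 were lower. With scaling to all probes and with no scaling there were 0 by limma, with 1 and 2 miRNAs at an unadjusted p under 0.05. In the last 3 the median log2 difference of all tested miRNAs moved to -0.19 (spike-ins), -0.24 (all probes) and -0.17 (no scaling), so a member near 0 changes its sign with the scaling.

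Among the myomiRs, 0 of 5 tested members passed with all arrays (1.75% of all tested miRNAs were called lower). Without young soleus 7 it was 2 of 5 lower (against 11.4% of all tested). With all arrays 5 of 5 were below 0. Their median log2 difference was -0.28, against 0 for all tested miRNAs and -0.08 for the 56 detected on all 8 soleus arrays. miR-206 was at 22.8, 22.0, 26.1 and 23.95 in young soleus and 18.5, 21.3, 19.01 and 16.4 in old soleus, with no overlap. Its log2 difference was -0.34 ± 0.10 (limma adjusted p = 0.0636), and -0.36 without young soleus 7 (limma adjusted p = 0.0417). The value was 0 with quantile normalization, which gives the brightest probes of every array the same value. miR-499 was at 0.406, 0.396, 0.625 and 0.501 in young soleus and 0.360, 0.394, 0.388 and 0.277 in old soleus, so that young soleus 8 and old soleus 2 nearly met. Its log2 difference was -0.43 ± 0.14 (limma adjusted p = 0.0823) and -0.50 without young soleus 7 (limma adjusted p = 0.0337).

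The other 3 myomiRs were not past the threshold in either fit. miR-133b, encoded 3882 bases from miR-206 on chromosome 9, was at 33.1, 33.6, 37.8 and 33.2 in young soleus and 26.7, 30.8, 29.7 and 31.6 in old soleus. Again the ages did not overlap, and the log2 difference was -0.21 ± 0.08 (limma adjusted p = 0.124). miR-133a, near-identical in sequence to miR-133b so that the array may not tell them apart, had a log2 difference of -0.22 ± 0.09 (limma adjusted p = 0.125). miR-1, which shares the seed GGAAUGU with miR-206, was at 10.2, 11.8, 13.5 and 11.7 in young soleus and 7.63, 10.5, 10.4 and 10.5 in old soleus. Only this myomiR had overlapping ages, and its log2 difference was -0.28 ± 0.14 (limma adjusted p = 0.197). The other 4 were lower in old soleus without overlap, as were 13.2% of all tested miRNAs. The sum of the 5 levels ran from 68.1 to 79.8 in young soleus and from 54.4 to 64.4 in old soleus. With quantile normalization 2 of 5 were below 0 and 3 at 0.

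The miR-15/16 family carries the seed AGCAGCA and is linked to withdrawal from the cell cycle. miR-16 was at 0.372, 0.379, 0.434 and 0.418 in young soleus and 0.266, 0.294, 0.333 and 0.353 in old soleus. miR-195 was at 0.247, 0.239, 0.287 and 0.255 in young soleus and 0.168, 0.192, 0.205 and 0.179 in old soleus. Neither overlapped between the ages. The log2 differences were -0.37 ± 0.11 (limma adjusted p = 0.0636) for miR-16 and -0.47 ± 0.14 (limma adjusted p = 0.0647) for miR-195, and without young soleus 7 both were past the threshold, at limma adjusted p = 0.0337 and 0.0430. miR-497, 337 bases from miR-195 on chromosome 10, had a log2 difference of -0.18 without overlap between ages. miR-15b, 146 bases from miR-16 on chromosome 2, had a log2 difference of 0.21 that rested on old soleus 4. The family's count was 0 of 5 with all arrays (1.75% of all tested miRNAs were called lower) and 2 of 5 lower without young soleus 7 (11.4% of all tested), with 4 of 5 below 0 and a median log2 difference of -0.18. With normexp background correction 3 of 5 were below 0.

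Single miRNAs of other origin came near the threshold. miR-128, known for its high level in brain and also present in muscle, was at 0.139, 0.143, 0.160 and 0.143 in young soleus and 0.109, 0.109, 0.111 and 0.0966 in old soleus. The ages were well apart, and the log2 difference was -0.46 ± 0.13 (limma adjusted p = 0.0636, and 0.0337 without young soleus 7). miR-21, which is raised in fibrotic and inflamed tissue, was at 0.105, 0.118, 0.139 and 0.139 in young soleus and 0.201, 0.180, 0.192 and 0.377 in old soleus. Old soleus 4 stood far above the other 3 old arrays, which were themselves above every young array. Its log2 difference was 0.86 ± 0.25, the largest among miRNAs detected on all 8 soleus arrays, and it was past the threshold in 0 of the 8 fits that each left out an array (limma adjusted p = 0.0636 with all arrays, 0.0601 to 0.151 over those fits).

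miR-34a, which p53 induces, was at 0.0358, 0.0462, 0.0446 and 0.0516 in young soleus and 0.0557, 0.0569, 0.0618 and 0.0534 in old soleus. The ages did not overlap by a narrow margin, and it was well above background on 3 young arrays and only 1 old array. The log2 difference was 0.36 ± 0.13 (limma adjusted p = 0.102). miR-140*, from a hairpin best known in cartilage, had a log2 difference of 0.37 ± 0.13 (limma adjusted p = 0.106). It was well above background on 2 young arrays and 1 old array, and its ages overlapped. miR-378, encoded in the gene of the energy-metabolism coactivator Ppargc1b, was above the young range on all 4 old arrays and did not pass the test, with a log2 difference of 0.28 ± 0.12 (limma adjusted p = 0.125).

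The let-7 family, with the seed GAGGUAG, promotes differentiation and opposes growth. let-7b was at 1.501, 1.42, 1.40 and 1.34 in young soleus and 1.56, 1.63, 1.53 and 1.58 in old soleus. These ranges did not overlap although the difference was small, 0.15 ± 0.06 on the log2 scale (limma adjusted p = 0.112, and 0.0430 without young soleus 7). let-7e also did not overlap, with a log2 difference of 0.16 ± 0.07 (limma adjusted p = 0.125). The family had 0 of 8 calls (against 3.51% of all tested miRNAs) and, without young soleus 7, 1 of 8 called higher (against 11.4%). With all arrays 7 of 8 were above 0, and the median log2 difference was 0.06. All 8 members were below 0 with scaling to all probes, with scaling to the spike-ins and with no scaling, so no direction is given for the family.

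Other miRNAs whose ages did not overlap had small or dim differences that did not pass. miR-23b, at 1.44 to 1.58 in young soleus and 1.33 to 1.37 in old soleus, and miR-125b-5p, at 0.986 to 1.03 and 0.864 to 0.971, both had a log2 difference of -0.15. miR-107, which shares the seed GCAGCAU with miR-103 and nearly its whole sequence, had a log2 difference of -0.15, and its other probe gave -0.02. The log2 difference of miR-103 was -0.21. Its ages overlapped, and it passed without young soleus 7 (limma adjusted p = 0.0254). With normexp background correction both members of this pair were above 0. miR-290 and miR-345-5p, each detected on 4 of 8 soleus arrays, had log2 differences of -0.46 and -0.20.

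Markers of the other cells in muscle were read in the same way. Among 10 tested mesenchymal and fibroblast miRNAs 1 rose, miR-214 (1.75% of all tested miRNAs were called higher), with 5 above 0, 3 below and 2 at the lowest allowed value, a median log2 difference of 0.19 and non-overlapping higher values for 4 (8.77% over all tested miRNAs). The summed level of this list ran from 3.12 to 4.08 in young soleus and from 3.02 to 3.40 in old soleus. Most of this sum was miR-22, so it says little of the other members. miR-22, a member of this list that is also a muscle miRNA, was at 2.20, 2.40, 3.01 and 2.79 in young soleus and 1.94, 2.11, 2.22 and 2.01 in old soleus. It overlapped only through young soleus 7 and old soleus 3, and its log2 difference was -0.32 ± 0.12 (limma adjusted p = 0.115, and 0.0341 without young soleus 7).

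Of the leukocyte miRNAs, 3 of 5 were tested and 0 passed with all arrays (against 3.51% of all tested miRNAs), with 2 above 0 and 1 below. Their summed level ran from 0.295 to 0.350 in young soleus and from 0.291 to 0.384 in old soleus. miR-150, detected on all 8 soleus arrays, had a log2 difference of -0.19 (limma adjusted p = 0.240), and miR-146a one of 0.30 (limma adjusted p = 0.504). miR-223, a miRNA of myeloid cells, was at 0.146, 0.0919, 0.0664 and 0.0778 in young soleus and 0.117, 0.115, 0.104 and 0.142 in old soleus. Young soleus 7 was the highest of all 8, and without it the log2 difference went from 0.38 to 0.61 (limma adjusted p = 0.314 and 0.0430). Of 3 endothelial and 2 smooth muscle miRNAs 0 passed (against 3.51% of all tested miRNAs), with median log2 differences of -0.08 and -0.15. Only 1 of the 3 endothelial miRNAs, miR-126, was detected on 4 or more soleus arrays, and the endothelial median is its value. miR-451, a red-cell miRNA, was well above background on 0 young arrays and 2 old ones, with levels of 0.0703 on old soleus 3 and 0.122 on old soleus 4 and the lowest allowed value on the other 6. The part of these cells in any difference was not tested.

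Without young soleus 7, 13 miRNAs were higher in old muscle (11.4%) and 13 lower (11.4%). Both sets were picked by the fit without that array, so larger differences there than with all arrays follow in part from the choice. The lower ones were miR-103, miR-128, miR-16, miR-181a, miR-195, miR-196a, miR-206, miR-212, miR-22, miR-30a*, miR-30c, miR-30e and miR-499. Their median log2 difference was -0.37 with all arrays and -0.47 without young soleus 7. Of these 13, 9 were well above background on all 8 soleus arrays, against 56 of all 114. Young soleus 7 was the lowest young array for 8 of the 13. It was so for 42 of all 114, and for 39 of the 78 detected on 4 or more soleus arrays.

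The higher ones were let-7b, let-7b*, miR-1*, miR-191*, miR-214, miR-223, miR-29b, miR-3085, miR-328a, miR-409-3p, miR-494, miR-652 and miR-702-3p. Their median log2 difference was 0.34 with all arrays and 0.61 without young soleus 7. Young soleus 7 was the highest of all 8 arrays for 8 of these 13, and for 19 of all 114. For such miRNAs leaving it out raises the old minus young difference by construction. Of the 13, 6 were well above background on all 8 arrays, against 56 of all 114. Of the 26 miRNAs, 10 had ages that did not overlap with young soleus 7 included.

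miR-3085 is an example of the second kind. It was at 0.118, 0.0567, 0.0490 and 0.0508 in young soleus and 0.0840, 0.0851, 0.0711 and 0.0994 in old soleus. Young soleus 7 was above every old array, and the other 3 young arrays were below them. The log2 difference was 0.40 ± 0.22 with all arrays (limma adjusted p = 0.273) and 0.70 ± 0.10 without young soleus 7 (limma adjusted p = 0.00100). miR-494, of the imprinted Dlk1-Dio3 region, had the same order in part. It was at 0.430, 0.275, 0.232 and 0.252 in young soleus and 0.447, 0.435, 0.390 and 0.475 in old soleus. Young soleus 7 lay within the old range, and the log2 difference was 0.60 ± 0.25 with all arrays (limma adjusted p = 0.125) and 0.79 ± 0.23 without it (limma adjusted p = 0.0337).

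miR-191*, with the smallest adjusted p of the fit without young soleus 7 (limma adjusted p = 9.48e-05), was well above background on 0 young arrays and 1 old array. Its level was 0.0803 on young soleus 7, above every old array (0.0455 to 0.0575), and 0.0339 to 0.0354 on the other young arrays. With all arrays it did not pass (limma adjusted p = 0.489), and no fold is given because both ages were mostly at background. miR-328a, also past the threshold without young soleus 7, was well above background on 0 soleus arrays, so no fold is given. miR-212 was well above background on 1 young array and 0 old ones, and miR-92a on 0 young arrays and 1 old array. For both the bound was under 1, and no fold is given.

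**Figure D3:**
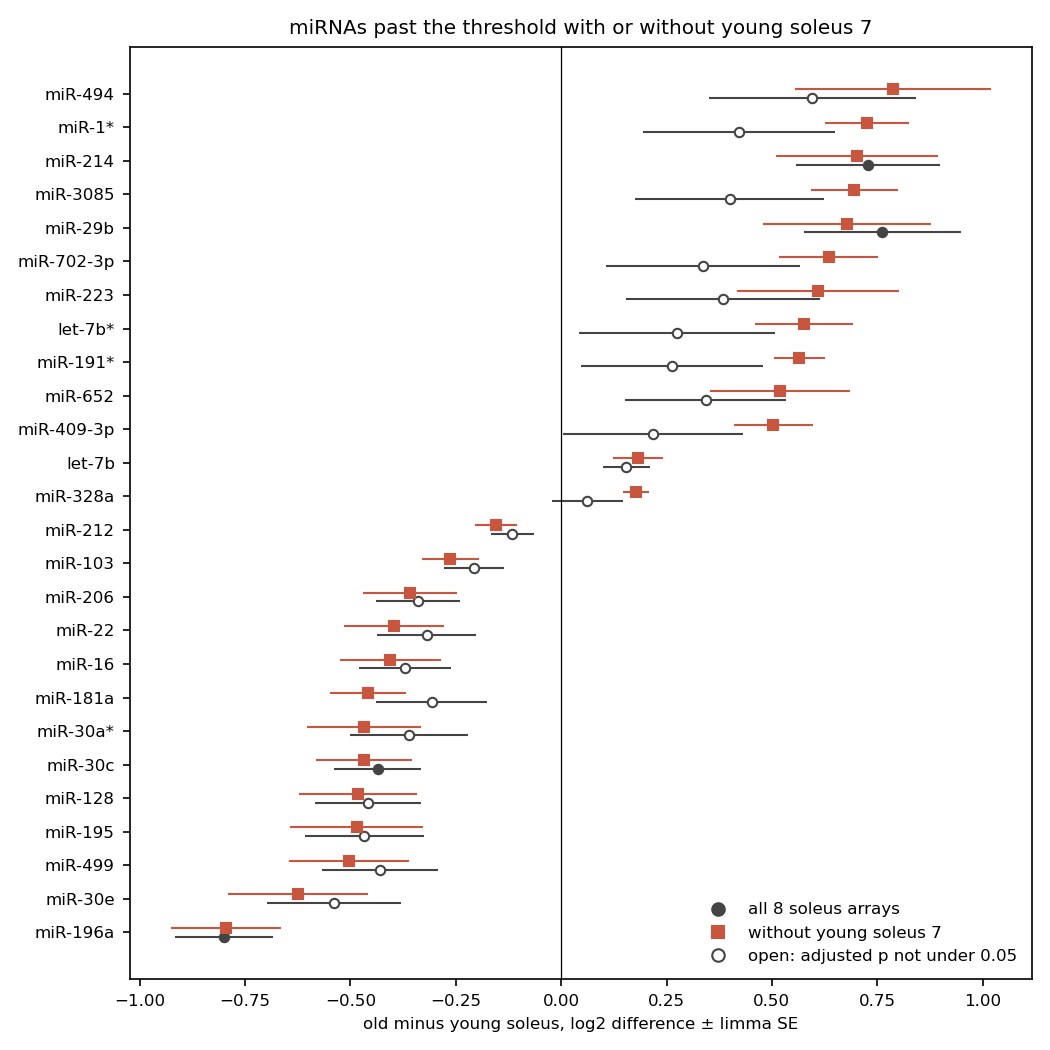
Log2 difference between old and young soleus with its limma SE for the 26 miRNAs past the threshold without young soleus 7, with all 8 soleus arrays (grey circles) and without it (red squares); open symbols are not past the threshold. For the 13 lower miRNAs the median is -0.37 with all arrays and -0.47 without young soleus 7. For the 13 higher ones it is 0.34 and 0.61. The 26 were picked by the fit without that array, so larger differences in that fit follow in part from the choice.

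Young soleus 7 did not differ from the other young arrays by 1 amount. Over the 78 miRNAs detected on 4 or more soleus arrays it was compared with the mean of the other 3 young arrays, after sorting the miRNAs by mean level into 3 groups of 26. The median log2 gap was -0.08 in the dim group, -0.08 in the middle group and -0.11 in the bright group. Single miRNAs went far above this: 5 dim, 4 middle and 1 bright miRNA were higher on young soleus 7 by more than 0.5. miR-3588, chosen after its values were seen, was at 0.682 on young soleus 7, at 0.207, 0.173 and 0.156 on the other young arrays, and from 0.146 to 0.262 on the old ones.

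**Figure D4:**
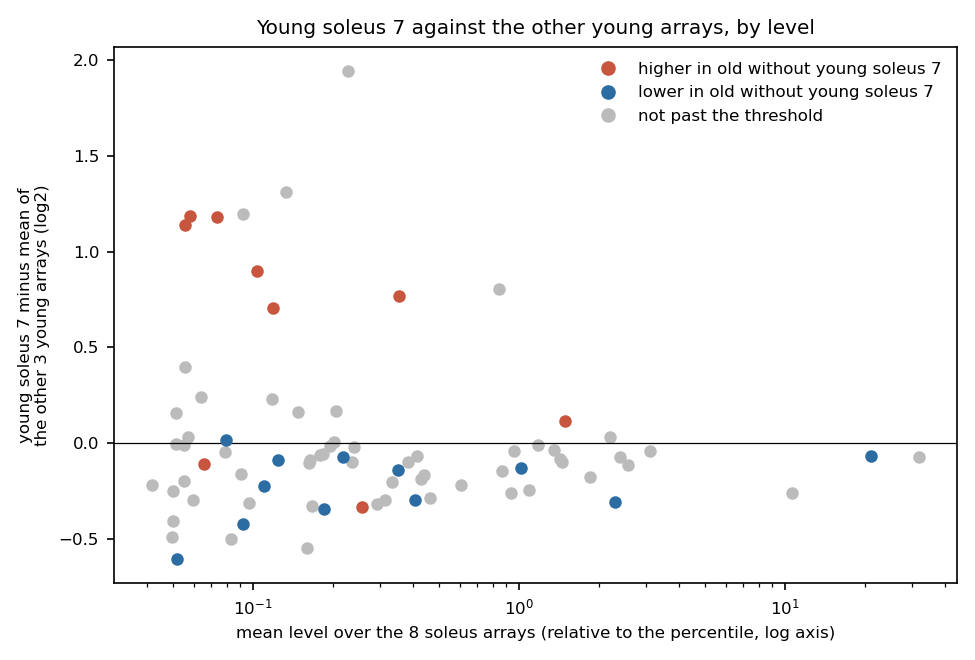
Log2 level on young soleus 7 minus the mean of the other 3 young arrays against the mean level over the 8 soleus arrays (log axis) for the 78 miRNAs detected on 4 or more of them; coloured points are past the threshold in the fit without that array. Most points lie just under 0, and 10 of the 78 lie above 0.5, up to 1.94 for miR-3588.

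Array brightness was also fitted as a covariate. With it 16 miRNAs passed with all arrays, 9 of them among the 26. Without young soleus 7 and with the covariate 25 passed, 18 higher and 7 lower, among them 11 of the 13 higher and 6 of the 13 lower miRNAs. The old minus young difference also varied with level: over the 26 dimmest of the 78 miRNAs the median log2 difference was 0.11 (16 above 0, 10 below), against -0.11 in the middle group and -0.04 in the bright group. The part of brightness in these differences was not tested further.

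Soleus was then compared with EDL, to see where its age difference departs from that of a fast muscle. In EDL 14 miRNAs passed (12.3%), 12 higher (10.5%) and 2 lower (1.75%), and 2 of these 14, miR-196a and miR-29b, were also among the 4 of soleus. The sign was the same in both muscles for 13 of the 14. miR-196a had a log2 difference of -0.71 in EDL and -0.80 in soleus, and miR-29b 1.08 in EDL and 0.76 in soleus. miR-214 and miR-30c, the other 2 soleus calls, had log2 differences of -0.17 and -0.24 in EDL, where neither passed.

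The age difference itself differed between the muscles for 1 of 114 miRNAs (0.877%), miR-206. In EDL its level was 1.91, 2.35, 2.08 and 1.95 in young and 4.82, 4.51, 4.21 and 5.56 in old muscle. It rose in EDL by 1.20 on the log2 scale (limma adjusted p = 3.20e-06) and had a log2 difference of -0.34 in soleus. The difference of these differences was -1.54 ± 0.14 (limma adjusted p = 9.79e-06). With scaling to all probes (-1.61, limma adjusted p = 0.999) and with no scaling (-2.08, limma adjusted p = 0.174) it was not past the threshold.

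The next miRNAs by p in that test were miR-214 (difference of differences 0.90, limma adjusted p = 0.159), miR-34a (-0.57, limma adjusted p = 0.244), miR-150 (-0.42, limma adjusted p = 0.244) and miR-199a-3p (0.66, limma adjusted p = 0.244). Without young soleus 7 there were 9 (7.89%), of which 7 had a more positive value for soleus (6.14%). Of these 7, 5 were at the lowest allowed value on all 8 EDL arrays and the other 2 reached at most 0.0421 there, so no EDL age difference was measured for them to be compared with. The other 2 (1.75%) were miR-206 and miR-34a. EDL arrays of both ages were on 1 slide of their own, so muscle and slide cannot be told apart. Young and old soleus were on separate slides, so any difference between those slides enters the soleus age difference and not that of EDL. In the difference of differences it cannot be told apart from age. The scaling percentile ran from 589 to 1864 in EDL and from 290 to 681 in soleus. It overlapped only through young EDL 9, at 589, as every other EDL array was at 866 or above. The signal of the labelling spike-in dmr_285 did not overlap, from 194 to 804 in EDL and from 55.9 to 186 in soleus.

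**Figure D5:**
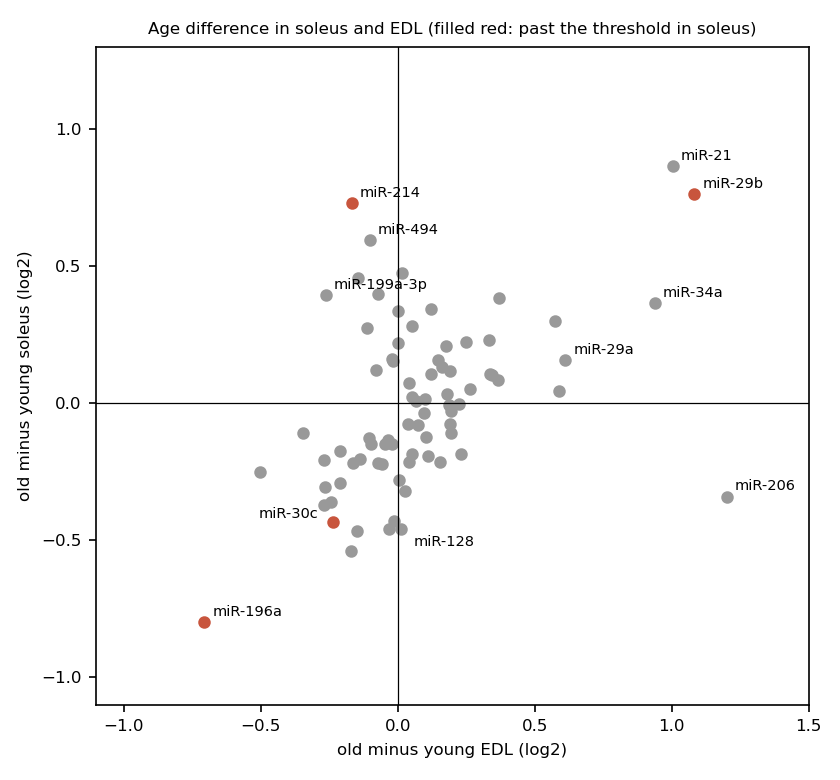
Old minus young log2 difference in soleus against that in EDL for the 78 miRNAs detected on 4 or more soleus arrays, with the 4 soleus calls in red. miR-206 stands apart at 1.20 in EDL and -0.34 in soleus; miR-196a and miR-29b lie on the same side of 0 in both muscles and miR-214 does not.

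Where a miRNA had another probe that was detected on 4 or more soleus arrays, the probes were compared. This was so for 58 miRNAs, and 55 of the 58 other probes had the same sign of difference as the brightest. The median absolute difference between them was 0.04 on the log2 scale. Probes of 1 miRNA share an array and its RNA, and are no further replicates.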

How the data were processed

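RNA was isolated with a miRNeasy kit and labelled with Cy3, per the labels' protocols. Per the file headers, the deposited spot intensity values (gProcessedSignal) came from Agilent Feature Extraction 10.7.3.1, with a grid annotated on rn4. Outlier-flagged spots (3.03% of 13540) were dropped and the rest averaged per probe. Signals were scaled by the 75th percentile over 95 probes that were well above background (over 0.5 of spots flagged so) on all 16 arrays, and values below 0.0339 were raised to it. The brightest probe stood for a miRNA, and a miRNA well above background on 4 or more of 16 arrays was tested. One limma model (limma 3.58.1, R 4.3.3) of 4 groups of 4 gave all contrasts, two-sided, with Benjamini-Hochberg adjustment over 114 miRNAs at 0.05; errors are limma SEs. It was tested on simulated data. Figures used Python 3.11.15 and matplotlib 3.10.9. Older array names were assigned to arms by hand for sequences, of which 40 of 44 matched RefSeq. Named were all calls with and without young soleus 7, miRNAs whose ages did not overlap, the 10 with the smallest p, every myomiR, and at most 4 from any other list. The comparison and the lists were chosen with earlier results of these data known.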

Additional observations from a re-analysis of the deposited data

Results flagged for a closer look

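Among the soleus levels of 162 groups of 4 arrays examined, 13 had 1 array far from the other 3, and about 1 in 20 groups is set apart in this way by chance. On old soleus 4, miR-21 was at 0.377 (the other 3 old arrays from 0.180 to 0.201), miR-15b at 0.0828 (0.0339 to 0.0384), miR-92a at 0.0687 (0.0402 to 0.0415), miR-409-3p at 0.0730 (0.0554 to 0.0574) and miR-128 at 0.0966 (0.109 to 0.111). On old soleus 1, the myomiRs miR-1 at 7.63 (10.4 to 10.5) and miR-133a at 1.22 (1.38 to 1.40) were below the other 3. On young soleus 9, miR-133b at 37.8 (33.1 to 33.6) and miR-378* at 0.249 (0.234 to 0.236) were above the other 3. On young soleus 7, miR-3085 at 0.118 (0.0490 to 0.0567), miR-191* at 0.0803 (0.0339 to 0.0354) and miR-328a at 0.0466 (all 3 at 0.0339) were above the other 3 and miR-146a at 0.0396 (0.0462 to 0.0477) was below them. The age difference of miR-206 differed between soleus and EDL by -1.54 on the log2 scale in the interaction test.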

How the results depend on the processing

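The count of soleus miRNAs past the threshold, 4 with all arrays, was 0 with the percentile over all probes, 14 with that over the probes of all 8 soleus arrays, 0 with no scaling, 12 with quantile normalization, 39 with spike-in scaling and 0 with normexp. It was 10 of 141 with gTotalGeneSignal, 1 with the mean over probes, 12 of 78 with detection on 4 of 8 soleus arrays, 1 of 677 with no filter, 8 and 1 with a floor 2 times lower and higher, 10 with soleus arrays only and that detection filter, 44 with array weights (which gave young soleus 7 the lowest weight, 0.221) and 16 with the brightness covariate. Leaving out 1 soleus array gave 1 to 26, and soleus arrays only without young soleus 7 gave 14. Alternatives chosen after seeing the data left out young soleus 7 and gave 0 with all-probe scaling, 0 with none, 39 with spike-ins, 0 with normexp, 25 of 78 with the filter and 25 with the covariate; for the counts of 0, 1 to 18 miRNAs had an unadjusted p under 0.05 by limma. The count of miRNAs whose age difference differed between muscles, 1, was 0 with all-probe scaling and with none, 3 with quantile normalization, 29 with spike-ins, 2 with the filter, 2 with either floor, 12 with array weights, 2 with the covariate and 1 to 9 with 1 soleus array left out. The brightness difference of -0.27 ranged from -0.54 to -0.13 with 1 array left out.

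With the replicate block on the title number the soleus count was 13 and the muscle count 4, and with the block on the source-name number the muscle count was 2. Deviations of arrays with the same title number correlated at 0.496, -0.351, 0.691 and 0.0113, and 2 of 4 young arrays correlated best with the old array of their own number, so the numbers were not taken as pairs. Of 80 single miRNAs followed, 55 had the opposite sign under at least 1 alternative; in 1 of these, miR-98 of the let-7 family (0.16 with all arrays, -0.47 with gTotalGeneSignal), a value with the opposite sign was past the threshold. The causes of these changes were not tested. The number of arrays (8), the separate slides of the ages and signal near background, most of all on young soleus 7, limit what the comparison can show.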
